A study of Mus musculus with 32 samples.

Results

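The genes described here build and run the acidic lysosome: 32 genes listed by symbol, of 49585 rows in the deposited table and 13258 genes with enough counts to test. All 32 were found by their identifier and all 32 passed the filter on low counts. They comprise 6 genes of the membrane (V0) sector and 8 of the cytosolic (V1) sector of the proton pump, 2 genes of its accessory proteins, 6 cathepsins, 3 glycosidases and the activator precursor Psap, 4 lysosomal membrane proteins, and the transcription factors Tfeb and Tfe3.

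FE1 cells, a line grown from the lung of a transgenic mouse and labelled as lung epithelial, received 0, 1, 4, 6 or 10 mM hydrazine, a small reactive nitrogen compound, for 4 h. One set was collected at 4 h, and the other after a further 20 h of washout, meaning with the compound removed. Every group held 3 libraries lettered a to c, apart from 4 mM at 4 h, which held 5, lettered a to e. The control at each time was the 0 mM vehicle, all groups were of the same line with no genotype difference given, and RNA was poly-A selected before stranded sequencing. Nothing in the labels says whether libraries of a group came from separate cultures, and the p-values therefore cover only the spread among them, which may be technical.

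Totals ran from 10560942 to 17086721 counts per library. Library c of 6 mM after washout stood apart: its log2 differences from its group mates had an SD of 0.447 over 11986 genes, against 0.163 to 0.280 for the other 31 libraries. Counts of members at 6 mM after washout are given with and without it. This library also entered the shared fit behind the calls at every other dose. The label of epithelial cells did not match its defining markers, since 13 of 17 epithelial markers stayed below 1 CPM, counts scaled to library size, in every library and Cldn4, Nkx2-1, Sftpc and Sftpd were at 0. All 10 mesenchymal markers were tested, and their summed level was 20410 to 26080 CPM at 4 h. At 4 h the sum of macrophage markers, another cell type rich in lysosomes, was 15.6 to 19.7 CPM in the vehicle and 16.2 to 17.8 CPM at 10 mM, with Adgre1 at 0 in every library. After washout that sum was 23.0 to 26.5 CPM in the vehicle and 25.8 to 26.5 CPM at 10 mM. Of the 11 macrophage markers, 9 stayed below 1 CPM in every library and 2 passed the filter on low counts. Within that list Cd68, also a lysosomal membrane protein, was called higher at 10 mM, by 0.78 ± 0.19 at 4 h and 1.03 ± 0.20 after washout on the log2 scale. The washout change was from 1.36 ± 0.346 to 2.78 ± 0.0416 CPM. The summed level, which includes Cd68, overlapped the vehicle at both times at 10 mM. The other tested marker is not given by itself here. The part of such cells in the results was not tested.

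The lysosome is the organelle in which proteins, sugars and lipids are broken down. The vacuolar ATPase pumps protons into it: the V1 sector splits ATP outside the membrane, the V0 sector carries protons across, and cathepsins and glycosidases work in the acid that results. Tfeb and Tfe3 encode related transcription factors known to switch on lysosomal genes through an E-box with the letters CACGTG, and they are held in the cytoplasm by nutrient signalling through mTORC1.

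The promoter windows of RefSeq (GRCm38.p6, 250 bases before to 50 after a gene start) covered 26 of the 32 genes with 33 windows. Atp6v0a2, Atp6v1b2, Atp6v1c1, Atp6v1g1, Atp6v1h and Ctsb had no window. The build used for the counts was not given in the sources used here, and the sequences were matched by symbol. CACGTG, which reads the same on both strands, lay in a window of 11 of the 26 genes (42.3%). Of all 27025 genes with a promoter window 8.09% held it, as did 7.15% of all 32851 windows. These include genes with too few counts to test, and the share among tested genes was not counted. The longer form TCACGTG, searched on both strands, lay in 9 of the 26 genes against 4.29% of all genes with a window. TCACGTGA lay in 6 of the 26 against 1.12%. Each longer form contains the shorter, so the 3 counts overlap. The carriers were Atp6v0b, Atp6v0d1, Atp6v0e, Atp6v1a, Ctsa, Ctsd, Ctsf, Ctsl, Glb1, Lamp1 and Mcoln1. A match is only a description of these letters, and none in a window says nothing of a factor's binding.

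Shown next are 4 windows that hold the motif and belong to genes whose values are given library by library further on, with the window of Neu1, which rose without one. Each is read 5′ to 3′ on the gene's strand, with CACGTG in capitals. The Mcoln1 window is chr8:3500269-3500568, plus strand, that of Atp6v0d1 is chr8:105566015-105566314, minus strand, and that of Ctsd is chr7:142387778-142388077, minus strand. The Ctsf window is chr19:4854915-4855214, plus strand, and that of Neu1 is chr17:34931003-34931302, plus strand.
Mcoln1: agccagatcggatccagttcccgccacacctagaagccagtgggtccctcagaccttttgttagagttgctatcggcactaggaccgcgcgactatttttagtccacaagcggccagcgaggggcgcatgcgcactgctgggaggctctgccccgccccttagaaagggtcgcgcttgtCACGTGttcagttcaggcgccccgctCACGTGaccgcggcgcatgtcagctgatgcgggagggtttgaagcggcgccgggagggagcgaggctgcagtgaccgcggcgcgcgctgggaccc
Atp6v0d1: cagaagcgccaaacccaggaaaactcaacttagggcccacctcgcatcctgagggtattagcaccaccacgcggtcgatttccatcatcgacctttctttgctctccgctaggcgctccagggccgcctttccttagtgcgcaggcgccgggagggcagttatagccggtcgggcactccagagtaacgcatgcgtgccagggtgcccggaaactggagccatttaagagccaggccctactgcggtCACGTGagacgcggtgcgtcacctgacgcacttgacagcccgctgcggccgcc
Ctsd: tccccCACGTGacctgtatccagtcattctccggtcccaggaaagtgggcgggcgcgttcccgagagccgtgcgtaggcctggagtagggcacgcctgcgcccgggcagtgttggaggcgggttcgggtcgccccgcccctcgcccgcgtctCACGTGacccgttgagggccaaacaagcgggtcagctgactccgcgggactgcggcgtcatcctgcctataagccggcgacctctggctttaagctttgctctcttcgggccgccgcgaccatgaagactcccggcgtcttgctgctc
Ctsf: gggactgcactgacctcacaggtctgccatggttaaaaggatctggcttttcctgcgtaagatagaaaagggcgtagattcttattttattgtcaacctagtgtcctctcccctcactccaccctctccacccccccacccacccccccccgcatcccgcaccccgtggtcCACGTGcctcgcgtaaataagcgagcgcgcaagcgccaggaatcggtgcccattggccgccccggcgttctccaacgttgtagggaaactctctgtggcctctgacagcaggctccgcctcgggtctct
Neu1: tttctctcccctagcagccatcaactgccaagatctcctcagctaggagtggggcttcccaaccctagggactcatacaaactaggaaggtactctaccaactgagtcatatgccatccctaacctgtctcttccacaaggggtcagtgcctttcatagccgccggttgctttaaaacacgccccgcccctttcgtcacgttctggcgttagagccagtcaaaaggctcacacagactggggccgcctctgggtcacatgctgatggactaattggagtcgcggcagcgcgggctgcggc

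Mcoln1 carried 2 copies, with first bases at -71 and -45 from the start, where the first transcribed base is +1. Ctsd also carried 2, at -245 and -98. Atp6v0d1 had 1 copy at -3, across the start, and Ctsf 1 at -79. Lamp1 held the most, 4 copies between -61 and -15. All these positions count from the RefSeq start of the window. The GENCODE locations given further on start elsewhere for some of these genes. By those, the -98 copy of Ctsd and the -45 copy of Mcoln1 lie inside the gene. At 10 mM and 4 h the median log2 fold change was 0.66 over the 11 genes with the motif and 0.34 over the 15 without, a description with no test. The 15 include the factors Tfeb and Tfe3 themselves, neither of which rose. Genes with no window entered neither median. Of these, Atp6v0a2 fell at that dose and time, while Atp6v1b2, Atp6v1c1, Atp6v1g1, Atp6v1h and Ctsb rose. A link between the motif and the rise was not tested.

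**Figure D1:**
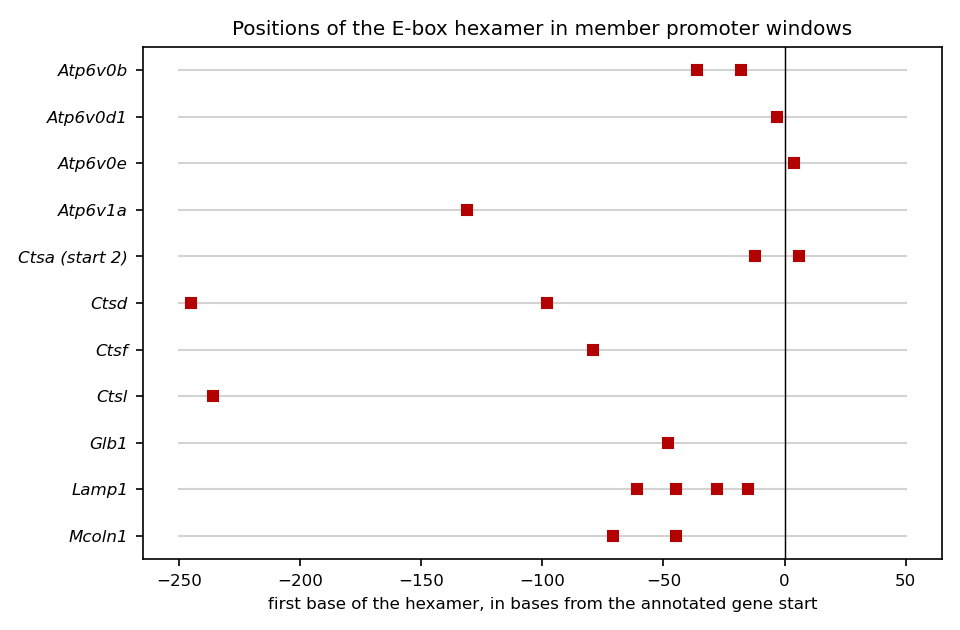
Positions of the first base of CACGTG, in bases from the gene start annotated by RefSeq, for each window of these genes that holds it. Squares are motif copies and grey lines the 300-base windows. Lamp1 has 4 copies close to its start and Ctsd has copies at -245 and -98.

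Per kilobase of exon, the vehicle at 4 h held these genes at levels that differed widely (CPM per kb, mean ± SD, n = 3). Lamp1, a glycosylated protein that lines the lysosomal membrane, was highest at 210 ± 2.72. Psap, the precursor of the saposins that help lipids reach their enzymes, stood at 163 ± 3.61 and the aspartic protease Ctsd at 102 ± 1.68, close to the tetraspanin Cd63 at 99.5 ± 2.91, from which it differed by less than the spread. Among pump genes Atp6v1g1 was highest at 53.8 ± 2.37, with Atp6v0d1 and Atp6v1a at 35.1 ± 0.637 and 20.5 ± 1.19. At the low end stood the sialidase Neu1 at 2.28 ± 0.210, the cation channel Mcoln1 at 2.21 ± 0.220, Tfeb at 2.16 ± 0.278 and the cysteine protease Ctsf at 0.671 ± 0.0872. Neu1, Mcoln1 and Tfeb were within their spread of each other. With the longest transcript as the length, 28 of the 32 levels moved by more than 1 SD and Mcoln1 rose to 5.78 CPM per kb.

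At 4 h most of these genes rose from 4 mM on, among them 20 that were higher at 4, 6 and 10 mM alike. How many of all genes were higher at these doses alike was not counted. A call means an adjusted p below 0.05 from the quasi-likelihood test of edgeR, with the Benjamini-Hochberg method applied to the 13258 genes. At 1 mM, 2 members were higher and 1 lower, when 4.48% of all genes were higher and 5.36% lower. These calls were not stable: leaving out 1 of the 32 at a time gave 0 to 2 higher and 0 to 1 lower, and leaving out any 1 mM library gave 0 and 0. The count higher fell to 0 or 1 in 19 of the 32 fits, some of them without a library of a group outside the comparison. At 4 mM, 22 were higher and 2 lower, against 19.5% and 19.1% of all genes. At 6 mM, 28 were higher and 2 lower, against 20.3% and 19.6%. At 10 mM, 26 were higher and 2 lower, against 26.0% and 24.1%. The median log2 fold change of the members was 0.07, 0.24, 0.43 and 0.47 in order of dose, while the median over all genes lay between 0.01 and 0.03. Library by library, the median log2 ratio of the members to the vehicle mean was 0.20 to 0.27 at 4 mM, 0.39 to 0.43 at 6 mM and 0.48 to 0.51 at 10 mM, so that these groups did not overlap, and 0.04 to 0.08 at 1 mM. CPM are divided by a TMM scaling factor, which was 1.008 to 1.016 in the vehicle libraries at 4 h. It was 0.9695 to 1.002 at 6 mM and 0.9115 to 0.9233 at 10 mM, and a lower factor gives a higher CPM. The part of this scaling in the separation was not tested, and such separation was not counted over all genes. In bulk RNA, fewer cells of a type and less RNA per cell cannot be told apart. With dose at 4 h, the mitochondrial share of counts was 1.67% to 1.71% in the vehicle and 1.23% to 1.32% at 10 mM, and the summed mesenchymal markers were 20410 to 21940 CPM in the vehicle and 24890 to 26080 CPM at 10 mM. The summed epithelial markers were 13.3 to 16.1 CPM in the vehicle and 8.83 to 10.6 CPM at 10 mM. Their part in these results was not tested.

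**Figure D2:**
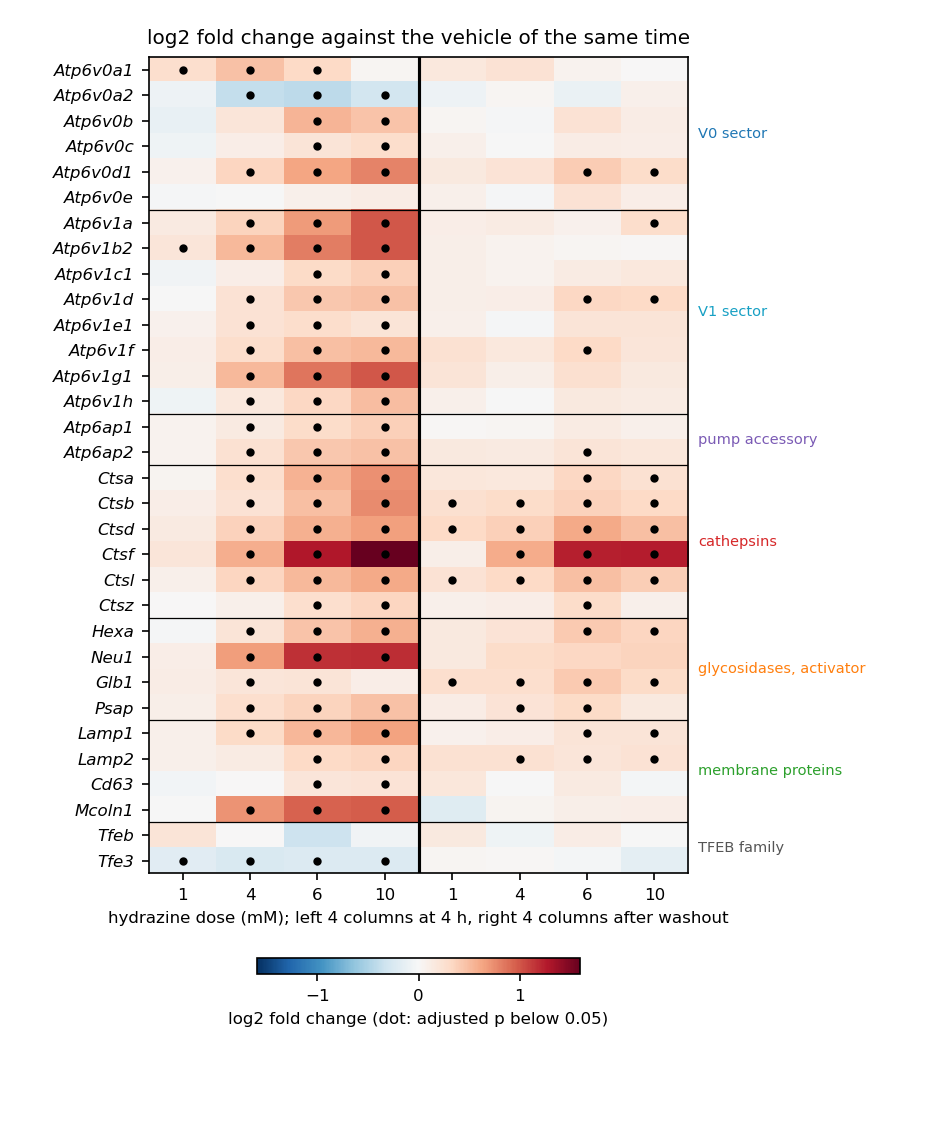
Log2 fold change of each of the 32 genes (rows, by role) against the vehicle of the same time, for each dose in mM at 4 h (left 4 columns) and after washout (right 4 columns); red is higher, blue lower and a dot marks adjusted p below 0.05. At 10 mM and 4 h 26 genes are called higher, and after washout of 10 mM 12 are.

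The 2 genes called lower at 4, 6 and 10 mM were Atp6v0a2, one of the V0 subunits that span the membrane, and Tfe3. For Atp6v0a2 the log2 fold changes at 4, 6 and 10 mM were -0.38 ± 0.06, -0.42 ± 0.07 and -0.29 ± 0.07 (± SE). By contrast its relative Atp6v0a1 was higher at 1, 4 and 6 mM, by 0.27, 0.47 and 0.32 on the log2 scale, and stood at 0.03 ± 0.09 at 10 mM (edgeR, adjusted p = 0.78). Its 1 mM call was kept in 13 of 32 fits that each left out 1 library.

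In the V0 sector at 10 mM, 3 of 6 genes were higher and 1 lower. Atp6v0d1 (chr8:105524465-105566047, minus strand, here and further on by GENCODE M21 on GRCm38), the subunit that couples V0 to the central stalk, gave 62.2, 62.5 and 64.3 CPM in the vehicle libraries and 65.7, 68.1 and 64.3 CPM at 1 mM. It gave 78.7, 78.0, 76.99, 84.3 and 80.8 CPM at 4 mM, 95.3, 99.5 and 97.2 CPM at 6 mM and 104, 110 and 113 CPM at 10 mM. Every treated library was higher than the vehicle, at 1 mM by a narrow margin, and each dose lay above all lower doses without overlap. The log2 fold change was 0.79 ± 0.07 at 10 mM (adjusted p = 1.1e-10). Atp6v0b and Atp6v0c, subunits of the proton-carrying ring, rose at 6 mM and 10 mM by 0.54 and 0.45, and by 0.21 and 0.28, on the log2 scale. Atp6v0e was not called at any dose or time, with 0.12 ± 0.08 at 10 mM and 4 h.

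All 8 V1 genes were higher at 6 and 10 mM, and 7 of them at 4 mM. The catalytic A subunit Atp6v1a, the B subunit Atp6v1b2 and the stalk subunit Atp6v1g1 changed most, with log2 fold changes at 10 mM of 0.99 ± 0.08, 0.99 ± 0.06 and 0.99 ± 0.08. Atp6v1b2 (chr8:69088646-69113711, plus strand) held 83.9, 81.5 and 75.7 CPM in the vehicle and 92.7, 94.5 and 88.9 CPM at 1 mM. At 4 mM it held 109, 119, 114, 121 and 114 CPM, at 6 mM 130, 150 and 144 CPM and at 10 mM 157, 170 and 153 CPM. No treated group overlapped the vehicle, and the order of the doses was the order of the libraries throughout. It was called already at 1 mM (0.19 ± 0.06, adjusted p = 0.032, kept in 17 of 32 fits that each left out 1 library) and at 10 mM with adjusted p = 1.3e-14. The other V1 genes, Atp6v1c1, Atp6v1d, Atp6v1e1, Atp6v1f and Atp6v1h, ranged from 0.21 to 0.52 at 10 mM, and the lowest, Atp6v1e1, kept its call in 15 of 32 such fits. Atp6v1h shares 127 exonic bp with Rgs20 on the opposite strand.

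Both accessory genes, Atp6ap1 and Atp6ap2, encode proteins that attend pump assembly, and both were higher at 4, 6 and 10 mM. Atp6ap2 (chrX:12587801-12617049, plus strand) measured 88.9, 80.2 and 88.3 CPM in the vehicle, 96.2, 101, 109, 105 and 99.0 CPM at 4 mM, 109, 120 and 117 CPM at 6 mM and 119, 122 and 116 CPM at 10 mM. Only at 1 mM, with 87.1, 88.2 and 93.0 CPM, did libraries overlap the vehicle. At 10 mM its log2 fold change was 0.47 ± 0.06 (adjusted p = 4.4e-08).

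All 6 cathepsins were higher at 6 and 10 mM, with a median log2 fold change of 0.70 at 10 mM. Ctsf (chr19:4855130-4860918, plus strand) had the largest change among the 32 genes. Its vehicle libraries gave 3.69, 3.57 and 2.88 CPM, those at 1 mM 4.48, 3.15 and 3.99 CPM and those at 4 mM 5.93, 5.03, 5.12, 4.82 and 4.47 CPM. At 6 mM the values were 8.06, 8.43 and 8.26 CPM and at 10 mM 9.81, 10.98 and 9.87 CPM. The 1 mM libraries overlapped the vehicle, those at 4 mM lay above the vehicle and met the 1 mM libraries at their lowest, and 6 and 10 mM each lay above all lower doses. At 10 mM the log2 fold change was 1.59 ± 0.14 (adjusted p = 1.3e-10).

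Ctsd (chr7:142375911-142388038, minus strand) gave 244, 237 and 237 CPM in the vehicle, 260, 272 and 261 CPM at 1 mM and 377, 376 and 378 CPM at 10 mM. It had 309, 314, 308, 314 and 297 CPM at 4 mM and 351, 349 and 361 CPM at 6 mM. No group overlapped the vehicle, though the 1 mM difference missed the threshold (adjusted p = 0.24). The cysteine protease Ctsl (chr13:64359337-64370890, minus strand) gave 164, 161 and 166 CPM in the vehicle, 176, 172 and 173 CPM at 1 mM, 204, 200, 208, 210 and 211 CPM at 4 mM, 224, 236 and 245 CPM at 6 mM and 239, 259 and 250 CPM at 10 mM. Every treated library lay above the vehicle. The log2 fold changes at 10 mM were 0.66 ± 0.07 for Ctsd and 0.61 ± 0.05 for Ctsl, with adjusted p of 9.3e-09 and 7.2e-11. The serine carboxypeptidase Ctsa and the cysteine protease Ctsb rose at 10 mM by 0.74 ± 0.06 and 0.76 ± 0.05, and Ctsz by 0.34 ± 0.08. Exons of Ctsb overlap those of Fdft1 on the opposite strand by 774 bp and Ctsa those of Pltp by 495 bp, and Ctsz those of Nelfcd by 10 bp. Ctsl shares 1742 exonic bp with Gm47123 on the opposite strand and 395 bp with the pseudogene Gm49230 on the same strand, with no count for either. Ctsd shares 808 bp with Gm49369 on the same strand, whose mean count was 0.826 beside 4230 for Ctsd. The strand setting of the counting was not given in the sources used here, so such values are uncertain.

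Among glycosidases, Neu1 (chr17:34931253-34935953, plus strand), which removes sialic acid, changed most. It gave 9.28, 8.59 and 7.71 CPM in the vehicle and 8.71, 9.21 and 9.65 CPM at 1 mM. At 4 mM it gave 14.3, 13.1, 12.7, 13.9 and 13.5 CPM, at 6 mM 17.1, 19.0 and 21.4 CPM and at 10 mM 18.4, 19.2 and 20.4 CPM. The vehicle and 1 mM overlapped, every higher library lay above both, and 6 and 10 mM overlapped each other. At 10 mM the log2 fold change was 1.18 ± 0.11 (adjusted p = 5e-10).

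Hexa (chr9:59539540-59565109, plus strand), a subunit of beta-hexosaminidase, held 63.0, 61.2 and 64.7 CPM in the vehicle, 64.2, 62.2 and 60.8 CPM at 1 mM and 69.8, 70.8, 73.2, 76.2 and 73.2 CPM at 4 mM. At 6 and 10 mM it held 89.0, 80.8 and 88.9 CPM and 89.3, 94.2 and 96.9 CPM. From 4 mM on no library overlapped the vehicle, and the log2 fold change at 10 mM was 0.57 ± 0.07 (adjusted p = 8.8e-08). Glb1 (chr9:114401076-114474898, plus strand) encodes lysosomal beta-galactosidase and had no steady order with dose: 38.0, 35.4 and 37.0 CPM in the vehicle, 39.2, 39.4 and 40.7 CPM at 1 mM, 40.2, 42.3, 43.9, 44.2 and 40.1 CPM at 4 mM, 43.4, 41.0 and 42.5 CPM at 6 mM and 40.2, 39.2 and 39.6 CPM at 10 mM. Its libraries lay above the vehicle at every dose, and it was called at 4 and 6 mM but not at 10 mM (0.11 ± 0.06, adjusted p = 0.14). It shares 165 exonic bp with Tmppe on the same strand. Psap rose by 0.47 ± 0.05 at 10 mM.

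All 4 membrane proteins were higher at 6 and 10 mM. Mcoln1 (chr8:3500457-3515232, plus strand) encodes a channel that releases calcium from the lysosome. It gave 17.7, 17.6 and 14.8 CPM in the vehicle and 15.2, 17.2 and 17.6 CPM at 1 mM, which overlapped. It then gave 27.5, 29.9, 29.5, 22.4 and 29.0 CPM at 4 mM, 31.2, 33.8 and 31.7 CPM at 6 mM and 33.5, 33.5 and 31.0 CPM at 10 mM. Libraries at 4 mM and above all exceeded the vehicle, and those at 6 and 10 mM overlapped. The log2 fold change was 0.72 ± 0.09 at 4 mM and 0.96 ± 0.10 at 10 mM (adjusted p = 1.5e-09). Lamp1 rose at 10 mM by 0.65 ± 0.04, its relative Lamp2 by 0.34 ± 0.06 and Cd63 by 0.22 ± 0.07. The Cd63 call at 6 mM was kept in 12 of 32 fits with 1 library left out.

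Neither TFEB family gene rose. Tfeb (chr17:47737030-47792419, plus strand) gave 13.7, 10.6 and 12.5 CPM in the vehicle and 15.3, 13.9 and 13.1 CPM at 1 mM. It gave 13.1, 12.8, 11.4, 12.6 and 11.4 CPM at 4 mM, 10.3, 9.03 and 9.91 CPM at 6 mM and 12.3, 10.98 and 12.2 CPM at 10 mM. The 6 mM libraries lay below the vehicle and the other doses overlapped it; none was called with all libraries (-0.33 ± 0.13 at 6 mM, adjusted p = 0.053, and -0.05 ± 0.13 at 10 mM, adjusted p = 0.77). The 6 mM difference was called lower in 17 of 32 fits that each left out 1 library. Tfe3 (chrX:7762560-7775202, plus strand) gave 63.0, 64.7 and 62.6 CPM in the vehicle, 57.2, 56.1 and 54.4 CPM at 1 mM, 54.5, 54.4, 52.4, 52.6 and 53.2 CPM at 4 mM, 55.6, 52.7 and 55.3 CPM at 6 mM and 56.9, 52.0 and 54.7 CPM at 10 mM. All treated libraries lay below the vehicle, and the log2 fold changes ran from -0.25 at 4 mM to -0.18 at 1 mM (adjusted p = 0.0015 at 10 mM). RNA levels do not show where in the cell these proteins lay.

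**Figure D3:**
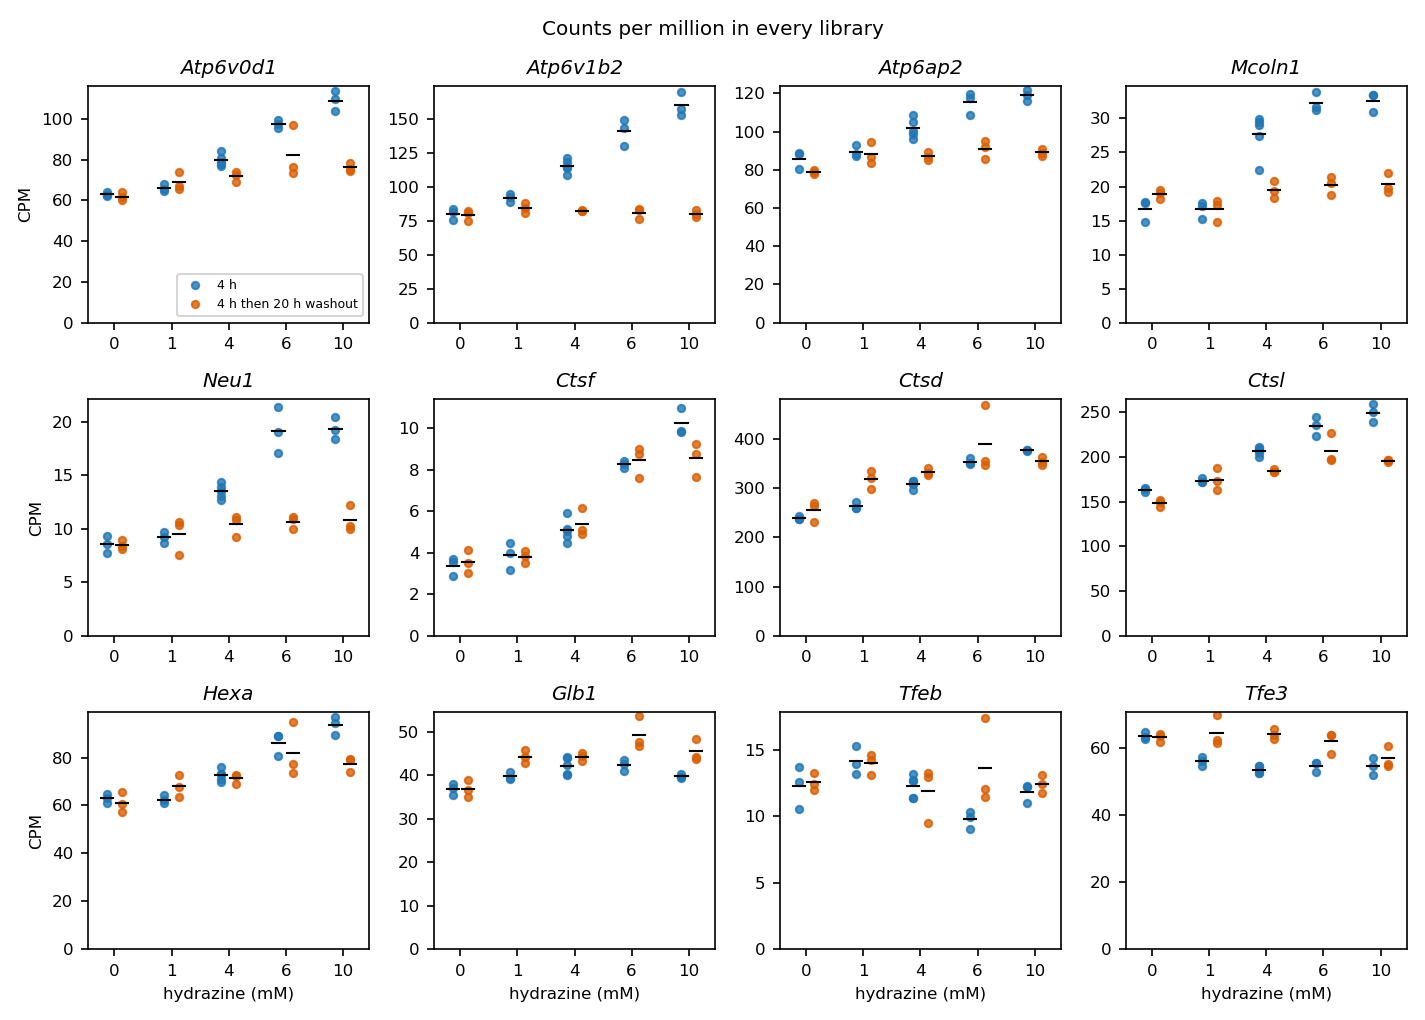
CPM (vertical axis from 0) in every library at 0, 1, 4, 6 and 10 mM for 12 genes, at 4 h (blue) and after washout (orange); bars are group means. Ctsf rises from about 3 to about 10 CPM with dose and stays high after washout, Atp6v1b2 returns to the vehicle's level, and Tfe3 lies lower at every dose at 4 h.

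Between neighbouring doses at 4 h, the median log2 change of the members was 0.19 from 1 to 4 mM, 0.19 from 4 to 6 mM and 0.08 from 6 to 10 mM. From 1 to 4 mM 20 were higher and 1, Atp6v0a2, lower, against 11.6% and 13.2% of all genes. From 4 to 6 mM 17 were higher and 0 lower, against 4.22% and 3.84%. For that 0, 1 gene had an unadjusted p below 0.05 by edgeR and DESeq2 called 0. From 6 to 10 mM 6 were higher and 1, Atp6v0a1, lower, against 19.5% and 18.0%. At this last step the share of members called higher was near that of all genes. The 6 that rose at all 3 steps were Atp6v1a, Atp6v1b2, Atp6v1h, Ctsa, Ctsb and Lamp1. Neu1 and Mcoln1 did not pass from 6 to 10 mM (0.02 ± 0.10 and 0.02 ± 0.09). Estimates increased in the order 1, 4, 6, 10 mM for 25 of 32 members. Neither this order nor a rise at all 3 steps was counted over all genes. Without library a or c of 1 mM at 4 h, 13 rose from 1 to 4 mM, and without library c of 6 mM, 9 rose from 4 to 6 mM, as 11 did with only libraries a to c of 4 mM. From 6 to 10 mM 3 rose without library a of 6 mM and 2 without library b of 10 mM. No share of all genes is given for these smaller fits.

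After washout fewer members were called at 4, 6 and 10 mM than at 4 h, and all calls were higher. At 1 mM 4 were higher and 0 lower, against 0.694% and 0.287% of all genes. At 4 mM 7 were higher and 0 lower, against 2.31% and 1.17%. At 6 mM 15 were higher and 0 lower, against 6.43% and 4.63%. At 10 mM 12 were higher and 0 lower, against 3.38% and 1.94%. For the lower direction, 0, 0, 0 and 1 member had an unadjusted p below 0.05 in order of dose, and DESeq2 called 0 at each dose. Median log2 fold changes were 0.11, 0.11, 0.22 and 0.17, beside medians of all genes within 0.01 of 0. The summed macrophage markers were 28.3 to 35.6 CPM at 1 mM and 27.1 to 37.3 CPM at 6 mM, above the 23.0 to 26.5 CPM of the washout vehicle. Of these 11 markers 9 stayed below 1 CPM in every library, so few genes carry the sum. The part of these markers in the washout calls was not tested.

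Many of the washout calls depend on single libraries or on the fit. Without library c of 6 mM after washout, 11 of the 15 members remained higher at 6 mM and the median was 0.14. Those lost were Atp6v1d, Atp6v1f, Atp6ap2 and Ctsz. Over all washout doses that fit gave 43 calls in place of 38, with 34 kept, 4 lost and 9 gained. A fit of only the 6 mM and vehicle washout groups called 0 members and 1 gene in all. At 1 mM the count was 0 without library c of the vehicle, or without library b or c of 1 mM, and 2 without library a or b of the vehicle. At 4 mM it was 3 to 4 without vehicle library b or c, or without library a of 4 mM. At 10 mM it was 7 when only washout libraries were fitted, with Atp6v1d, Atp6v1a, Ctsa, Atp6v0d1 and Lamp2 lost. Apart from the 1 gene named for 6 mM, no share of all genes is given for these fits. Whether members lost more calls than other genes was not tested.

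Proteases and glycosidases made up most of the calls after washout. At 6 and 10 mM, 9 and 7 of the 10 cathepsins, glycosidases and Psap were higher, and 4 and 3 of the 16 pump and accessory genes. Without library c of 6 mM these counts at that dose were 8 of 10 and 1 of 16. Over all genes 6.43% and 3.38% were higher in the fit of all libraries, and the difference between the roles was not tested. Ctsf gave 4.11, 3.01 and 3.52 CPM in the washout vehicle, 3.85, 4.07 and 3.53 CPM at 1 mM and 6.13, 4.88 and 5.11 CPM at 4 mM. At 6 mM it gave 9.004, 7.61 and 8.76 CPM and at 10 mM 9.24, 8.76 and 7.64 CPM. The 4, 6 and 10 mM libraries all lay above the vehicle, and the 6 and 10 mM libraries overlapped each other but not the lower doses. The log2 fold change was 1.25 ± 0.14 at 6 mM, 1.26 ± 0.14 at 10 mM (adjusted p = 4.9e-07), and 1.22 at 6 mM without library c.

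Ctsd had 263, 270 and 231 CPM in the vehicle, 299, 335 and 320 CPM at 1 mM, 340, 326 and 330 CPM at 4 mM, 354, 346 and 469 CPM at 6 mM and 363, 348 and 354 CPM at 10 mM. Its highest value is library c of 6 mM, and all treated libraries lay above the vehicle. For Ctsl the values were 150, 152 and 144 CPM in the vehicle, 164, 188 and 173 CPM at 1 mM, 187, 184 and 183 CPM at 4 mM, 197, 197 and 227 CPM at 6 mM and 194, 196 and 197 CPM at 10 mM. Again no treated library overlapped the vehicle. At 10 mM the log2 fold changes were 0.48 ± 0.07 for Ctsd and 0.40 ± 0.05 for Ctsl.

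Hexa gave 65.5, 60.7 and 57.2 CPM in the vehicle, 63.6, 72.7 and 67.7 CPM at 1 mM, 72.5, 68.9 and 72.6 CPM at 4 mM, 73.7, 77.3 and 94.7 CPM at 6 mM and 73.8, 78.8 and 79.5 CPM at 10 mM. From 4 mM on its libraries lay above the vehicle, with 0.34 ± 0.07 at 10 mM. Glb1, not called at 10 mM and 4 h, was higher at all 4 doses after washout: 38.8, 34.9 and 36.6 CPM in the vehicle, 45.8, 44.1 and 42.7 CPM at 1 mM, 45.1, 43.1 and 44.5 CPM at 4 mM, 46.6, 47.6 and 53.5 CPM at 6 mM and 48.4, 44.1 and 43.8 CPM at 10 mM. None of these groups overlapped the vehicle (10 mM: 0.31 ± 0.06, adjusted p = 0.0015). Ctsb, Ctsd and Ctsl were also called at all 4 doses, and Ctsf and Lamp2 at 4, 6 and 10 mM. The 6 mM call of Lamp2 was kept in 21 of 32 fits that each left out 1 library.

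In the pump, Atp6v0d1 gave 63.8, 61.6 and 59.9 CPM in the vehicle, 65.8, 74.1 and 66.8 CPM at 1 mM, 73.7, 72.2 and 69.2 CPM at 4 mM, 73.4, 76.3 and 97.1 CPM at 6 mM and 74.6, 78.3 and 75.5 CPM at 10 mM. No treated group overlapped the vehicle, and the gene was called at 6 mM (0.41 ± 0.07, or 0.27 without library c) and at 10 mM (0.30 ± 0.07). Atp6v1b2 gave 80.4, 82.3 and 75.0 CPM in the vehicle and 83.0, 79.8 and 78.2 CPM at 10 mM, which overlapped. At 1, 4 and 6 mM it gave 84.5, 88.2 and 81.1 CPM, 82.5, 82.8 and 81.9 CPM and 76.5, 83.5 and 82.7 CPM, and it was called at no dose. Neu1 at 10 mM gave 10.3, 10.0 and 12.2 CPM against 8.38, 8.95 and 8.11 CPM in the vehicle, with no overlap (0.36 ± 0.11, adjusted p = 0.066). Mcoln1 gave 22.0, 19.3 and 19.8 CPM against 19.5, 18.2 and 19.1 CPM, which overlapped (0.11 ± 0.10). Atp6ap2 gave 87.5, 88.9 and 91.1 CPM against 77.9, 79.7 and 79.0 CPM, with no overlap (0.18 ± 0.06, adjusted p = 0.064). After washout of 10 mM, Tfeb stood at -0.01 ± 0.13 and Tfe3 at -0.15 ± 0.05, neither called. The Tfe3 libraries, at 55.2, 54.6 and 60.6 CPM, lay below the 64.2, 63.4 and 61.8 CPM of the vehicle, while Tfeb at 12.4, 11.7 and 13.1 CPM overlapped its 12.0, 13.2 and 12.4 CPM. In all, 16 of the 32 genes were called at no dose after washout, and Atp6v0e and Tfeb at no dose of either time. The matching counts over all genes were not made.

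Whether an effect changed between the times was tested directly, by subtracting the 4 h effect from the washout effect of the same dose. At 10 mM it was lower for 16 members and higher for 1, against 18.4% and 18.0% of all genes. At 6 mM it was lower for 8 and higher for 1, against 12.2% and 12.3%. Dropping the outlying library c of the 6 mM washout group gave 14 and 1, while those shares are of the fit that kept this library. At 4 mM the effect was lower for 4 and higher for 2, against 7.82% and 9.44%. At 1 mM it was lower for 0 and higher for 0, against 0.543% and 0.551%, with 0 and 3 members at an unadjusted p below 0.05 and 0 called by DESeq2.

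All 16 lower at 10 mM had risen at 4 h. They were Atp6v0d1, 6 V1 genes, both accessory genes, Ctsa, Ctsb, Ctsl, Neu1, Psap, Lamp1 and Mcoln1. Differences were -0.97 ± 0.08 for Atp6v1b2, -0.83 ± 0.12 for Atp6v1g1, -0.86 ± 0.14 for Mcoln1 and -0.83 ± 0.16 for Neu1 (adjusted p = 1.7e-10, 2e-06, 1.1e-05 and 0.00016 by edgeR). For Ctsf the difference was -0.33 ± 0.20 (adjusted p = 0.21), for Ctsd -0.18 ± 0.10 (adjusted p = 0.18) and for Hexa -0.23 ± 0.10 (adjusted p = 0.069). A p that misses the threshold does not show equal effects. The 1 higher at 10 mM was Atp6v0a2 (0.37 ± 0.10), which had fallen at 4 h, and 2 were higher without library a of the vehicle, c of 6 mM or c of 10 mM, all after washout. Between the vehicles of both times, 0 members were higher and 0 lower by edgeR's test, when 3.33% and 3.55% of all genes were, with 1 and 3 at an unadjusted p below 0.05 and 0 called by DESeq2.

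**Figure D4:**
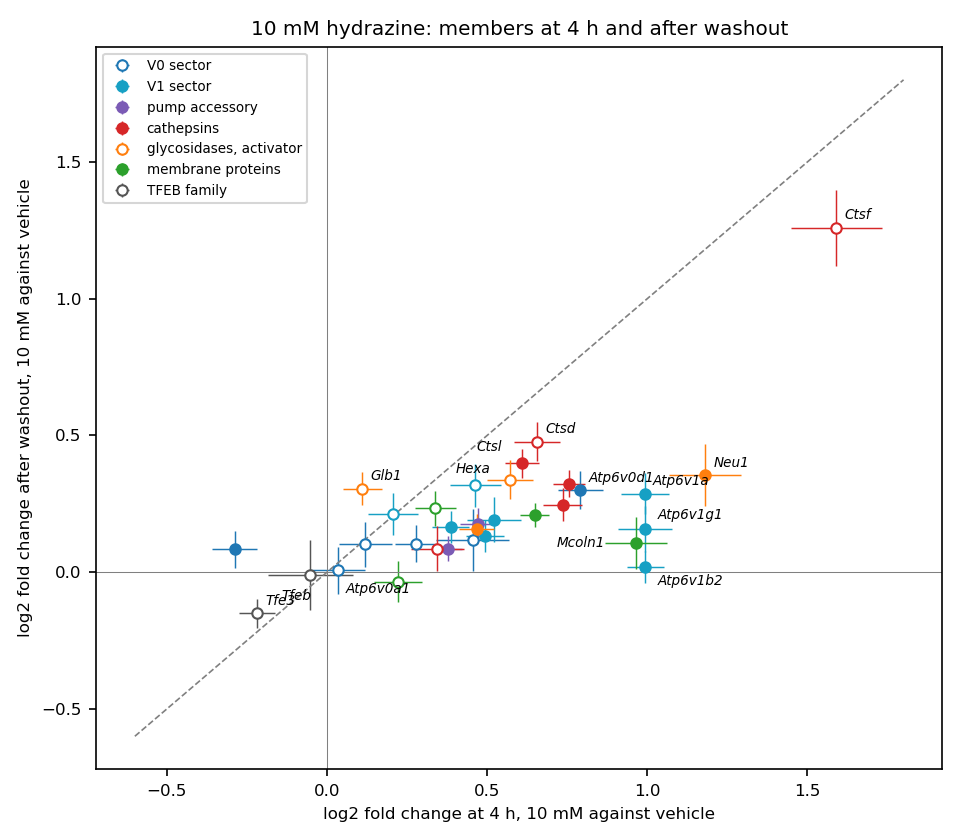
Log2 fold change at 10 mM against vehicle at 4 h (horizontal axis) and after washout (vertical axis), with bars of 1 SE and colour by role; filled points are genes whose change between times was called and the dashed line marks equal effects. Atp6v1b2, Atp6v1g1, Mcoln1 and Neu1 lie far below the line, and Ctsf at 1.59 and 1.26 lies near it.

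Other genes of the same pathways, from lists written for this comparison, were counted at 10 mM. Among 39 tested other hydrolases and activators 22 were higher and 4 lower at 4 h, with a median log2 fold change of 0.31, and among 26 other lysosomal membrane proteins 17 and 3, with 0.38. Among 18 sorting genes 11 were higher and 2 lower (0.24), among 19 TFEB relatives and nutrient-control genes 7 and 3 (0.08), and among 11 other pump genes 1 and 3 (-0.06). Over all genes, 26.0% were higher and 24.1% lower there, with a median of 0.01, and 3.38% and 1.94% after washout. After washout of 10 mM the same lists, in the same order, gave 16 and 0, 7 and 0, 1 and 0, 1 and 0, and 0 and 0 by edgeR. At an unadjusted p below 0.05, 0, 0, 0, 2 and 1 genes were lower, and 2 of the other pump genes were higher, where DESeq2 called 0 in each of these cases.

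The serine protease Dpp7 went from 10.0 ± 0.482 CPM to 32.9 ± 3.95 CPM at 10 mM and 4 h (SD, n = 3), a log2 fold change of 1.71 ± 0.10, and Gla, alpha-galactosidase, from 12.8 ± 0.824 CPM to 32.3 ± 3.89 CPM (1.33 ± 0.13). Idua, alpha-iduronidase, rose by 0.83. Among the 4 that fell were Ctso, a cysteine protease (-0.90), Gusb, beta-glucuronidase (-0.60), and the hyaluronidase Hyal2 (-0.31). Ctns, the cystine exporter (1.22), Npc1, which moves cholesterol out of lysosomes (1.01), and Cln3 (0.84) led the membrane proteins upward. Slc38a9, an amino acid transporter (-0.73, after 0.53 at 4 mM), Slc17a5, a sialic acid transporter (-0.66), and the channel Tpcn1 (-0.61) were the 3 that fell.

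The largest changes of the lists were in folliculin and its partners. Flcn, which acts on the Rag GTPases of nutrient signalling, went from 25.4 ± 2.65 CPM to 113 ± 9.52 CPM at 10 mM and 4 h, and its binding partner Fnip1 from 39.7 ± 1.46 CPM to 176 ± 24.5 CPM. Fnip2 went from 16.6 ± 2.62 CPM to 91.9 ± 7.89 CPM. The log2 fold changes were 2.15 ± 0.08, 2.15 ± 0.10 and 2.47 ± 0.13. After washout they stood at 0.03 ± 0.08, 0.35 ± 0.10 and 0.11 ± 0.13, of which Fnip1 was called. Mtor (-0.54), Rraga (-0.51) and Rptor (-0.33), parts of mTORC1 and its Rag recruiters, fell at 10 mM and 4 h.

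Among sorting genes Cln8, which helps carry new enzymes out of the endoplasmic reticulum, and the tethering subunits Vps11 and Vps18 rose by 1.34, 1.03 and 0.84, and the adaptor Gga3 and the mannose phosphate receptor M6pr fell by 0.23 and 0.15 on the log2 scale. Of the other pump genes, the V0 subunit Tcirg1 rose by 0.34, and Atp6v1g2 (-1.84), Tmem199 (-0.55) and the assembly factor Vma21 (-0.45) fell. After washout of 10 mM the 3 largest called rises of the lists were Tpp1, a tripeptidyl peptidase (0.55 ± 0.07), and the mannosidases Manba (0.51 ± 0.12) and Man2b1 (0.49 ± 0.06).

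**Figure D5:**
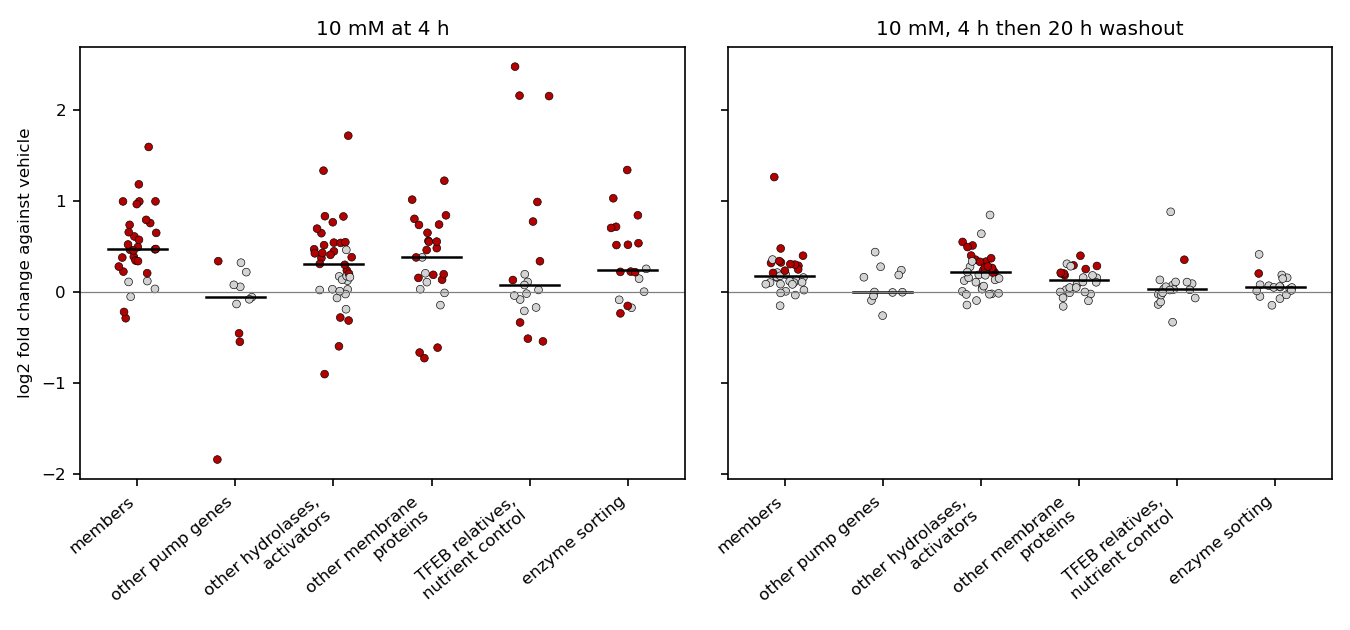
Log2 fold change against vehicle for the 32 genes and for each further list, at 10 mM and 4 h (left) and after washout of 10 mM (right); each point is a gene, red where adjusted p is below 0.05, and bars are medians. At 4 h the medians run from -0.06 in other pump genes to 0.47 in the 32 genes, and after washout no list gene is called lower.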

How the data were processed

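Expected counts per gene were deposited by the authors; which aligner, quantifier and genome build made them is not given in the sources used here. Of the values above 0, 73.9% were whole, and all were rounded. Identifiers matched a GENCODE M21 symbol for 97.2% of rows. Genes passing edgeR's expression filter (minimum count 10, minimum total 15) numbered 13258.

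All 32 libraries (groups from the labels) entered 1 quasi-likelihood model with TMM scaling (residual degrees of freedom 22, common biological coefficient of variation 0.0847). CPM are TMM-scaled. Adjusted p-values are Benjamini-Hochberg over all genes. Replicates were not copies (chi-square per degree of freedom at least 2.1 over 37 pairs). The script was tested on simulated counts. Alternatives were DESeq2, its size factors, no low-count filter, unrounded counts, no robust estimation, smaller sets of libraries, a replicate block and each library left out.

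Genes given library by library had the largest 10 mM change of their role at 4 h, were TFEB family, or were among the 6 with the largest change of those called at 2 or more washout doses; list genes were the 3 largest called each way. Members and lists were chosen with earlier results of these data known. Promoters are RefSeq's. R 4.3.3, edgeR 4.0.16 and DESeq2 1.42.0 were used.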

Additional observations from a re-analysis of the deposited data

Results flagged for a closer look

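The test of the difference between the 4 h and the washout effect called 6 of 32 members at 4 mM, 9 at 6 mM and 17 at 10 mM (adjusted p below 0.05 by edgeR's quasi-likelihood test). These are 18.8%, 28.1% and 53.1% of the members, beside 17.3%, 24.4% and 36.4% of all genes, so that the shares at 4 and 6 mM lie near those of all genes. All 17 at 10 mM had the effect of smaller size after washout: 16 had risen at 4 h and Atp6v0a2 had fallen, and the largest difference was that of Atp6v1b2, -0.97 ± 0.08 on the log2 scale. Without library c of 6 mM after washout, the members with a lower signed effect after washout of 6 mM numbered 14 in place of 8. The shares of all genes above are of the fit with that library.

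A search for single stray libraries among the 5 libraries of 4 mM at 4 h covered 32 members and marked 0, when chance marks about 1 in 20 groups.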

How the results depend on the processing

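No member's called fold change turned direction in any alternative. Of 85 calls against the vehicle at 4 h, DESeq2 kept 85, DESeq2 size factors 85, the fit without robust estimation 85 and the fit without a low-count filter 78. Of 38 calls after washout, these kept 38, 38, 38 and 32; fits of only the same time point kept 20 and fits of only the compared groups 19.

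Counts of members that moved by over 1.5 times were as follows, without the share of all genes in the same fits. Without the low-count filter, 1 member was higher and 0 lower at 1 mM and 4 h, 1 higher at 1 mM after washout, 13 higher from 1 to 4 mM, 11 from 4 to 6 mM, 2 from 6 to 10 mM, and 1 higher in the 4 mM difference between times. With only the compared groups, the washout counts were 0 at 1 mM, 13 at 4 mM and 0 at 6 mM, 3 rose from 6 to 10 mM, 1 fell from 4 to 6 mM, 0 were higher in the 6 mM difference and 1 was lower between the vehicles. With only the same time point, 0, 2 and 7 were higher after washout of 1, 4 and 10 mM, and 1 fell from 4 to 6 mM. With only libraries a to c of 4 mM, 11 rose from 4 to 6 mM. Counts moved up in some of these fits and down in others, and the cause was not tested. Fits without some groups have fewer libraries to estimate the spread, and the part of this was not tested either.

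The replicate block gave 11 from 4 to 6 mM in place of 17, and changed no other count by over 1.5 times. It kept 82 of the 85 calls at 4 h and 38 of the 38 after washout. Libraries with the same letter correlated over 0.1 for every letter in no comparison. At 10 mM after washout the correlations were 0.196, 0.0587 and 0.174, each the highest with any vehicle library. The same held at 6 mM and 4 h, with 0.0753, 0.0981 and 0.0784. In the other comparisons not every letter did so. These values cannot settle whether the letters mark a pairing.

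Leaving out 1 library at a time, the counts of members higher ran from 0 to 2, 20 to 24, 24 to 28 and 24 to 26 at 4 h by dose, and 0 to 6, 3 to 10, 11 to 21 and 9 to 16 after washout. For all genes, the ranges over these fits are not given here. Those lower ran from 0 to 1 at 1 mM, 2 to 3 at 6 mM and were 2 at 4 and 10 mM at 4 h, and from 0 to 1 after washout of 10 mM. By step, 13 to 23, 9 to 22 and 2 to 8 rose, and 0 to 1 fell from 4 to 6 mM. In the differences between times, 3 to 6, 6 to 14 and 13 to 21 were lower at 4, 6 and 10 mM, and 0 to 4 and 1 to 2 higher at 6 and 10 mM; 0 to 1 was lower between vehicles. The share of members with CACGTG was 34.6% in the 150 bases around the start, against 5.0% of all genes with a promoter window.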
